A study of Homo sapiens with 60 samples.

Results

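The genes described here are the regulators of the G1 phase of the cell cycle that were listed by name: the D-type cyclins CCND1, CCND2 and CCND3, their kinase partners CDK4 and CDK6, the CIP/KIP inhibitors CDKN1A, CDKN1B and CDKN1C, and the INK4 inhibitors CDKN2B and CDKN2C. These 10 genes, of 19712 in the deposited tables, were listed by name, with earlier results of these data known. RNA-seq was performed on PC9, HCC827, H1975 and HCC2935, established EGFR-mutant lines of non-small cell lung cancer, exposed to osimertinib, an irreversible inhibitor of mutant EGFR. Each line had 5 arms of 3 libraries, described as biological triplicates, for 60 libraries in all. Drug-tolerant persisters (DTPs) had been kept in 500 nM osimertinib for 21 days. Short washout cells were DTPs moved to drug-free medium for 24 h, and long washout cells were DTPs left without drug until they grew again, which took 7 days in PC9, 4 days in HCC827, 3 days in H1975 and 10 days in HCC2935. For the remaining arms, parental cells were cultured without drug for 21 days alongside the DTPs, and then received 500 nM osimertinib (acute) or the vehicle DMSO for 24 h. The long washout therefore differed in length between lines, and the labels give no EGFR allele for any line.

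As background, D-type cyclins are made in response to growth factor signalling and bind CDK4 or CDK6, and the active complexes phosphorylate the retinoblastoma protein so that E2F factors can switch on genes of DNA replication. INK4 proteins bind CDK4 and CDK6 and keep cyclin D away, whereas CIP/KIP proteins bind assembled cyclin-CDK complexes and chiefly block CDK2. In EGFR-mutant lung cancer cells, CCND1 is a well-known output of the ERK pathway downstream of EGFR, and growth arrest in G1 is a known response to EGFR inhibitors.

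Promoter sequence was looked up for the members that acute drug moved in the same direction in 3 or more lines, because letters shared by such members can be compared with the share of all promoters that hold them. RefSeq windows (GRCh38.p14) reached 250 bases upstream of the annotated start and matched 7 of the 10 members, CCND3, CDK4, CDK6, CDKN1A, CDKN1B, CDKN2B and CDKN2C. CCND1, CCND2 and CDKN1C are named only. The letters searched on both strands were the E-box CACGTG, which MYC and related factors bind, the GC box GGGCGG, the CCAAT box CCAAT, the AP-1 element TGACTCA and the FOXO element TGTTTAC, which do not overlap in the stretches shown. In the lines that follow, capitals mark a match to the E-box, GC box or CCAAT box on either strand, each sequence is read 5′ to 3′ on the strand of its gene, and the CDK4 and CDKN1B stretches also lie in annotated exons of the same gene.
CDK4, chr12:57752501-57752530, minus strand: cggtCACGTGtgatagcaacagatCACGTG
CDK4, chr12:57752394-57752423, minus strand: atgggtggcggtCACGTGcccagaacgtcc
CDKN1B, chr12:12717182-12717211, plus strand: tcacgcgaccagCCAATctcccggcggcgc
CDKN1B, chr12:12717293-12717322, plus strand: ggcgGGGCGGctcccgccgccgcaaCCAAT
CDKN2B, chr9:22009364-22009555, minus strand: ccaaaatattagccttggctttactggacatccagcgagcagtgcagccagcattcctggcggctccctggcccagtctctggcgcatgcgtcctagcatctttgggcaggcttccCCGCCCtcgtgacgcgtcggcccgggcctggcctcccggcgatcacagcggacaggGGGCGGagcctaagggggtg

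The CDK4 window held 3 E-boxes, beginning at positions -216, -196 and -101 from the start, whereas 6.34% of 35116 promoters of this length held the E-box at all and 0.0797% held 3 or more. It also held 3 GC boxes. Of the other matched members only CDKN2C held the E-box, at -220 and at -69 in the windows of different annotated starts. The CDKN1B window held 1 GC box and 2 CCAAT boxes, and the CDKN2B window 2 GC boxes, letters present in 42.6% (GC box) and 32.0% (CCAAT box) of all promoters. CCND3, lower in 3 lines, has 3 annotated starts, whose windows held 0, 2 and 5 GC boxes, 1, 1 and 0 CCAAT boxes and 0 E-boxes each, and none is printed because the files do not say which start was used. AP-1 and FOXO letters, present in 4.20% and 2.98% of promoters, did not occur in the windows of the matched members. These matches describe letters and not binding.

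Estimated counts summed to between 17.7 M and 49.1 M per library, with line medians of 40.2 M in PC9, 19.7 M in HCC827, 42.9 M in H1975 and 21.6 M in HCC2935, so low values were more precise in PC9 and H1975. In all, 3 libraries were set apart after their values were seen, for levels far from those of their replicates. PC9 long washout replicate 3 had an ETV4 level of 18.3 CPM (counts-per-million) against 67.6 and 85.3 CPM, and an MKI67 level of 265 CPM against 396 and 440 CPM. HCC827 DTP replicate 1 and short washout replicate 1 had CDKN2B levels of 116 and 113 CPM where their replicates lay between 43.3 and 53.6 CPM, and results that these libraries change are given with and without them. Other replicates also differed widely. By squared difference over counting error, a measure over all genes, PC9 long washout replicates 2 and 3 were farthest apart (139), followed by H1975 acute 1 and 3 (102), H1975 DTP 2 and 3 (96.6) and H1975 DMSO 1 and 2 (83.5). HCC827 DTP 1 and 2 were at 46.8. This measure grows with depth, and PC9 and H1975 were the deeper lines, so its values do not rank replicate spread between lines. Each library was therefore also left out in turn. Lung epithelial markers (8 genes) summed to between 1659 and 13644 TPM (transcripts-per-million), with KRT8 never under 575 TPM, whereas the surfactant gene SFTPB never passed 2.73 TPM. The 6 markers of blood, endothelium and stroma summed to between 4.93 and 53.6 TPM under DMSO, 13.5 and 179 TPM under acute osimertinib, 15.6 and 80.9 TPM in DTPs and 11.2 and 122 TPM after long washout. Of their 17 tests across lines, 9 were higher and 0 lower in the acute arm by edgeR. By line, 20.2% to 35.5% of all genes were higher in that arm and 18.7% to 30.7% lower. In DTPs 7 of the 17 tests were higher and 2 lower, where 22.4% to 36.4% of all genes were higher and 21% to 32.6% lower. Epithelial markers were higher in 13 and lower in 7 of 32 tests in the acute arm, and higher in 4 and lower in 17 in DTPs. The highest level of any library was 167 TPM for COL1A1, 10.2 for PECAM1, 8.50 for PDGFRB, 3.48 for PTPRC, 1.07 for VWF and 0.246 for CD3E. The part of these markers in the results was not tested.

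Levels are given as CPM after TMM scaling, and differences as log2 fold changes with their standard error (SE) from edgeR's quasi-likelihood test, fitted within each line to every gene that passed a filter on low counts, with Benjamini-Hochberg adjustment over those genes and calls at an adjusted p under 0.05. All 10 members passed the filter in HCC827 and H1975. CCND2 did not in PC9, where 14 of 15 libraries were at 0, and CDKN2B did not in HCC2935, where the highest library held 7 estimated counts and the 15 libraries 42 in all. This leaves 38 tests of members in each comparison. The RNA was extracted from whole cultures, in which fewer cells making a transcript and less of it per cell cannot be told apart.

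Acute osimertinib lowered most cyclins and kinases and raised most inhibitors. Against DMSO, 7 of 9 members tested in PC9 were called, where 66.2% of all genes were, 6 of 10 in HCC827 (38.9% of all genes), 8 of 10 in H1975 (51.7%) and 7 of 9 in HCC2935 (46.7%). Over the 4 lines, cyclins and kinases were higher in 2 and lower in 13 of 19 tests, and inhibitors were higher in 10 and lower in 3 of 19. Of all genes, 35.5%, 20.2%, 28.6% and 23.6% were called higher in PC9, HCC827, H1975 and HCC2935, and 30.7%, 18.7%, 23.1% and 23.1% lower. The median log2 fold change of the members was 0.33 in PC9, -0.07 in HCC827, -0.13 in H1975 and -0.54 in HCC2935, beside medians over all genes of 0.09, 0.05, 0.11 and 0.05. The share of members called lay above that of all genes in each line, 28 of 38 tests in all, and the roles differed in direction.

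In DTPs fewer cyclin and kinase tests were lower than under acute drug, and most inhibitor tests were higher than DMSO. CDKN1B and CDKN1C in HCC2935 and CDKN1A in H1975 rose after acute drug and were not called in DTPs. Against DMSO, 8 of 9 members were called in PC9 (68.9% of all genes), 5 of 10 in HCC827 (43.5%), 7 of 10 in H1975 (51.7%) and 7 of 9 in HCC2935 (52.6%). Cyclins and kinases were now higher in 6 and lower in 8 of 19 tests, and inhibitors higher in 12 and lower in 1 of 19. In the same line order 36.4%, 22.4%, 27.5% and 26.3% of all genes were called higher, and 32.6%, 21%, 24.2% and 26.3% lower. The members' median log2 fold change was 0.74 in PC9, 0.43 in HCC827, 0.16 in H1975 and -0.04 in HCC2935, with medians over all genes of 0.08, 0.02, 0.05 and 0.03. Compared directly with the acute arm, DTPs had higher cyclins and kinases in 11 and lower in 0 of 19 tests, and inhibitors higher in 3 and lower in 5 of 19. The direct comparison called 5 of 9 members in PC9, 4 of 10 in HCC827, 3 of 10 in H1975 and 7 of 9 in HCC2935, against 33.9%, 29.5%, 37.7% and 44.4% of all genes (16%, 16.2%, 19.3% and 23% higher, 17.9%, 13.3%, 18.4% and 21.4% lower). The acute, DTP and long washout arms were set against the same DMSO libraries, so these comparisons are not independent of each other.

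**Figure D1:**
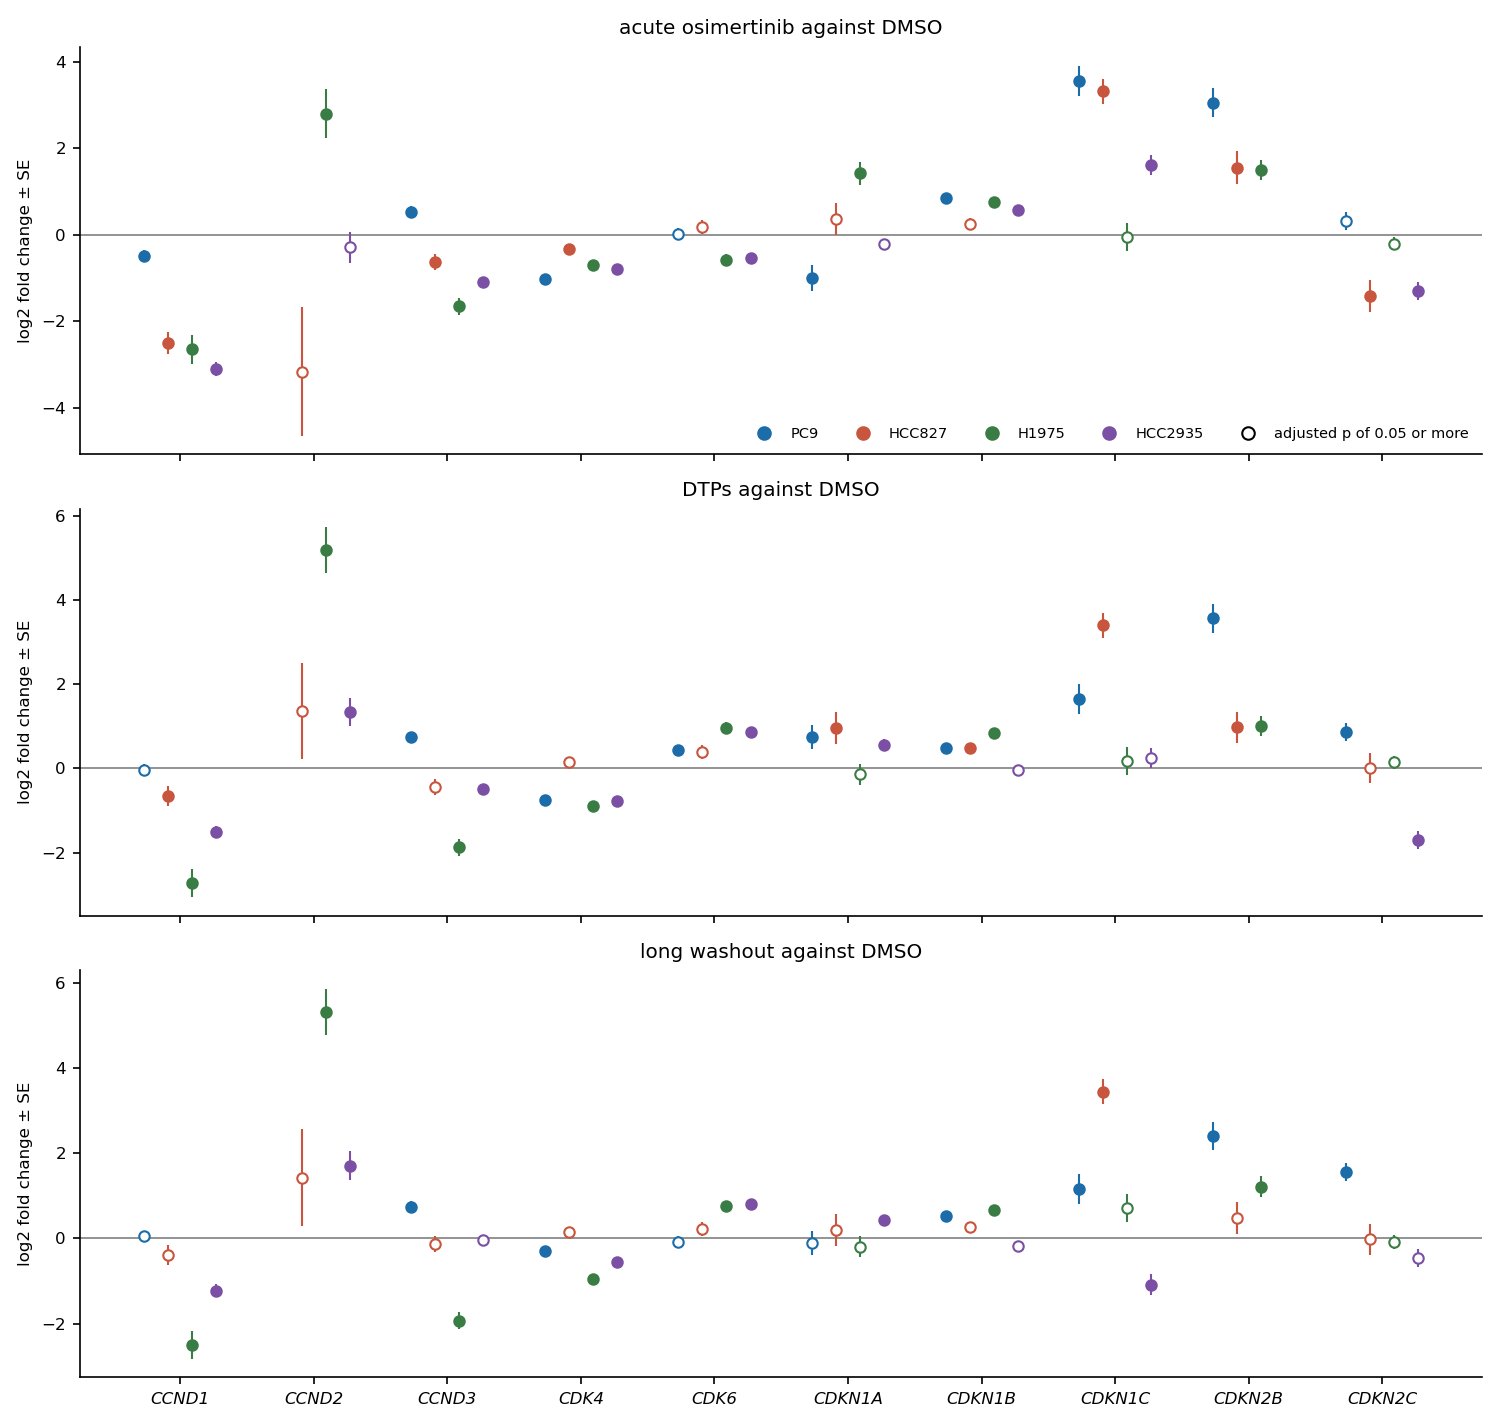
Log2 fold change (± SE) of the 10 members against DMSO on the vertical axis, for acute osimertinib (top), DTPs (middle) and long washout (bottom), with the genes on the horizontal axis and a colour per line. Filled points passed an adjusted p of 0.05 and open points did not; CCND1 and CDK4 lie below 0 in every line under acute drug, and CDKN2B lies above 0 in the 3 lines where it was tested.

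CCND1, the D-type cyclin most directly tied to ERK signalling, was the most abundant of the 3 per length (TPM) in every line. The gene lies on chromosome 11 (69641087 to 69654474, GRCh38, plus strand) and overlaps LTO1 on the opposite strand. In HCC2935 its level was 1486, 1622 and 1349 CPM under DMSO and 180, 155 and 186 CPM after acute drug, and the groups did not overlap (log2 fold change -3.10, SE 0.16, edgeR adjusted p = 3.71e-09). HCC827 libraries held 377, 516 and 274 CPM under DMSO against 52.5, 76.3 and 77 CPM, also without overlap (-2.50, SE 0.25, edgeR adjusted p = 4.87e-06). In H1975 the values were 198, 386 and 221 CPM against 54.3, 44.5 and 30.3 CPM (-2.64, SE 0.33, edgeR adjusted p = 1.8e-05). PC9 showed a smaller difference, from 613, 540 and 489 CPM to 367, 345 and 458 CPM, which still separated the groups (-0.49, SE 0.13, edgeR adjusted p = 0.00509) but was not called with all 60 libraries in 1 fit (adjusted p = 0.0849).

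How close CCND1 in DTPs lay to its DMSO level depended on the line. In PC9 the DTP libraries held 558, 460 and 588 CPM, overlapping the DMSO range, although replicate 2 lay below every DMSO library. The difference from DMSO was -0.03 on the log2 scale (SE 0.13, edgeR adjusted p = 0.841). In H1975 the DTP libraries held 28.8, 57.4 and 35 CPM, as low as in the acute arm, from which they differed by -0.09 (SE 0.32, edgeR adjusted p = 0.847). HCC2935 DTPs, at 674, 431 and 454 CPM, lay between the arms without overlapping either, higher than acute by 1.58 (SE 0.15) and lower than DMSO by -1.52 (SE 0.15) on the log2 scale. HCC827 DTPs, at 287, 216 and 235 CPM, were above the acute level (1.84, SE 0.25, edgeR adjusted p = 0.000112). Their deficit against DMSO (-0.66, SE 0.24, edgeR adjusted p = 0.0352) overlapped the DMSO range and was lost when DMSO replicate 1 or 2 or DTP replicate 2 or 3 was left out (highest adjusted p = 0.199). The PC9 difference from acute (0.46, SE 0.13, edgeR adjusted p = 0.017) was lost without acute replicate 1 or 2 or DTP replicate 1 or 3 (highest adjusted p = 0.0755) and with all 60 libraries in 1 fit (adjusted p = 0.17).

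**Figure D2:**
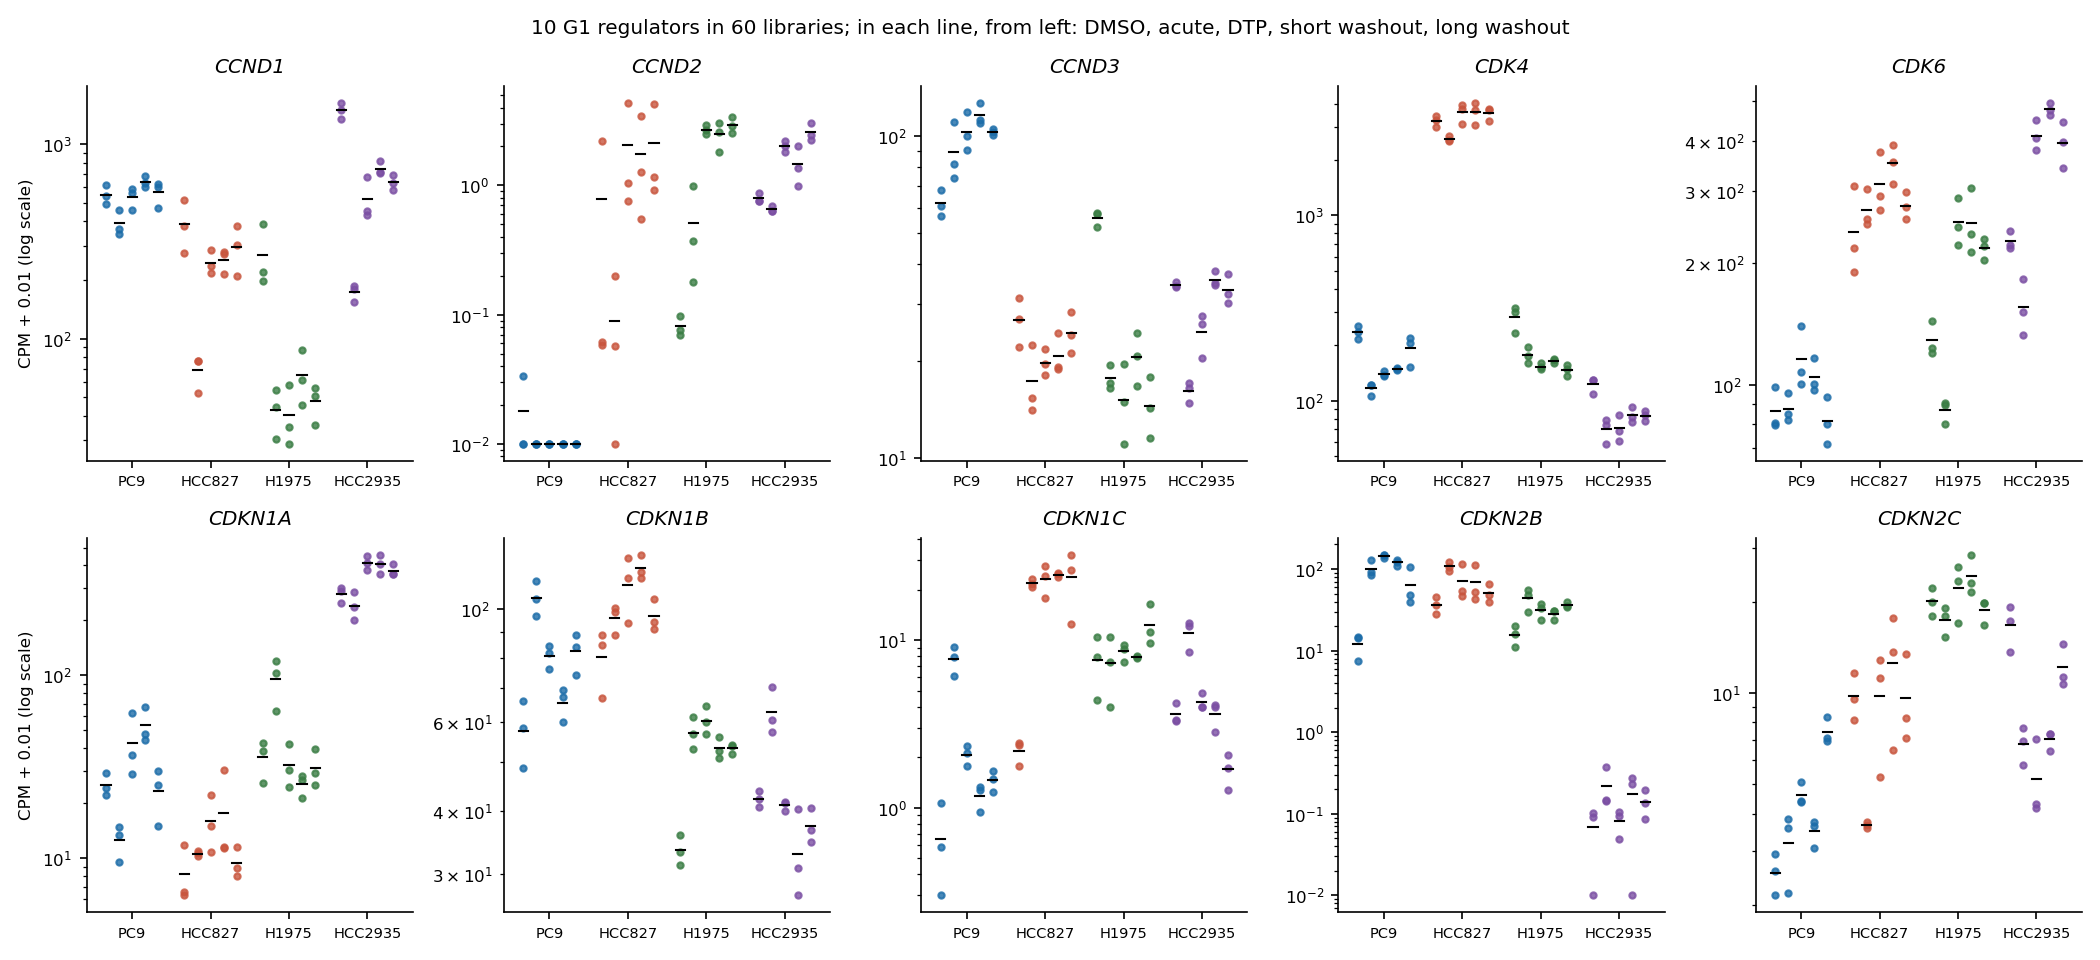
Level of each member in every library, as CPM + 0.01 on a log axis, with a panel per gene; within each line the 5 columns from left to right are DMSO, acute, DTP, short washout and long washout, points are libraries and black bars are group means. In group means, CDK4 in HCC827 and CDKN2B in HCC2935 sit more than 10 times above and below the other lines in the same arm. The CCND1 mean is lower in the acute column than in the DMSO column of each line.

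CCND3, a D-type cyclin with the same kinase partners (chromosome 6, 41934933 to 42050357, minus strand, with 2 named pseudogenes), moved in opposite directions between lines. In H1975 it fell from 52.1, 57.5 and 57.4 CPM under DMSO to 17.1, 19.4 and 16.5 CPM after acute drug, with no overlap (log2 fold change -1.65, SE 0.20, edgeR adjusted p = 1.15e-05), and DTPs held 14.9, 19.6 and 11 CPM (-1.87, SE 0.20). In PC9 it rose from 67.9, 56.6 and 60.8 CPM to 82.2, 74.1 and 111 CPM (0.53, SE 0.14, edgeR adjusted p = 0.00322) and stood at 119, 100 and 90.3 CPM in DTPs (0.74, SE 0.14, edgeR adjusted p = 0.000222). Neither PC9 group overlapped DMSO. HCC2935 fell from 35.2, 33.9 and 34.2 CPM to 16.5, 14.8 and 17 CPM and was at 26, 20.4 and 27.6 CPM in DTPs, so that DTPs lay above acute by 0.61 (SE 0.12, edgeR adjusted p = 0.000777). In HCC827 the acute fall (-0.63, SE 0.19, edgeR adjusted p = 0.0171) came from overlapping groups and was lost without DMSO replicate 2 or acute replicate 1 or 2 (highest adjusted p = 0.0807).

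CCND2, the remaining D-type cyclin (chromosome 12, 4273772 to 4305350, plus strand, overlapping CCND2-AS1 on the opposite strand), was low under DMSO, with line means of at most 0.785 CPM. In H1975 the 3 DMSO libraries held 3, 3 and 4 estimated counts, 10 in all, against 70 in the acute arm, 373 in DTPs and 378 after long washout. Scaled for depth, the DTP level was 38.1 times that of DMSO (95% counting interval 20.5 to 80.2), the acute level 7.43 times (3.81 to 16.2) and the long washout level 41.4 times (22.3 to 87.0), and edgeR called all 3. Acute replicate 1 held 47 of the 70 counts, and without it the acute level was 3.82 times that of DMSO (1.75 to 8.98). Such intervals cover counting error only. The DTP libraries nevertheless reached only 2.91, 2.65 and 2.5 CPM. HCC2935 DTPs held 2.02, 2.19 and 1.79 CPM against 0.864, 0.747 and 0.745 CPM under DMSO, a ratio of 2.55 (1.85 to 3.57; edgeR adjusted p = 0.00329, or 0.146 with all 60 libraries in 1 fit). In HCC827, DMSO replicate 3 alone held 2.21 CPM while replicates 1 and 2 held 0.0517 and 0.0478 CPM. DTPs held 4.32, 1.03 and 0.74 CPM there, and the test against DMSO had an adjusted p of 0.357 with DMSO replicate 3 and of 0.0104 without it. The HCC827 difference between DTPs and acute drug (4.53, SE 1.46, edgeR adjusted p = 0.0307) was lost without any of the 3 acute libraries (highest adjusted p = 0.109) and without DTP replicate 1 (3.33, adjusted p = 0.0954 with short washout replicate 1 left out as well).

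Because levels of different genes compare only per length, the makeup of the D-type cyclin pool was taken from TPM. CCND1 made up 84.3% ± 1.16 of D-type cyclin TPM in PC9 under DMSO (SD, n = 3 here and below), 89.4% ± 1.44 in HCC827, 73.4% ± 6.01 in H1975 and 96.3% ± 0.346 in HCC2935. Under acute drug this share fell to 72.8% ± 1.21, 70.7% ± 4.00, 58.7% ± 6.43 and 86.6% ± 0.296. The mean difference over lines was -13.6 percentage points (two-sided exact permutation test within lines, p = 1.25e-05, the smallest that its 160000 permutations allow; Benjamini-Hochberg p = 7.5e-05 over 6 tests). In DTPs the mean difference from DMSO was -6.80 percentage points (exact permutation p = 5e-05, adjusted p = 9.375e-05), and after long washout it was -5.56 (exact permutation p = 6.25e-05, adjusted p = 9.375e-05). By line, the DTP difference was largest in H1975, at -13.3 percentage points, and smallest in HCC827, at -1.56.

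**Figure D3:**
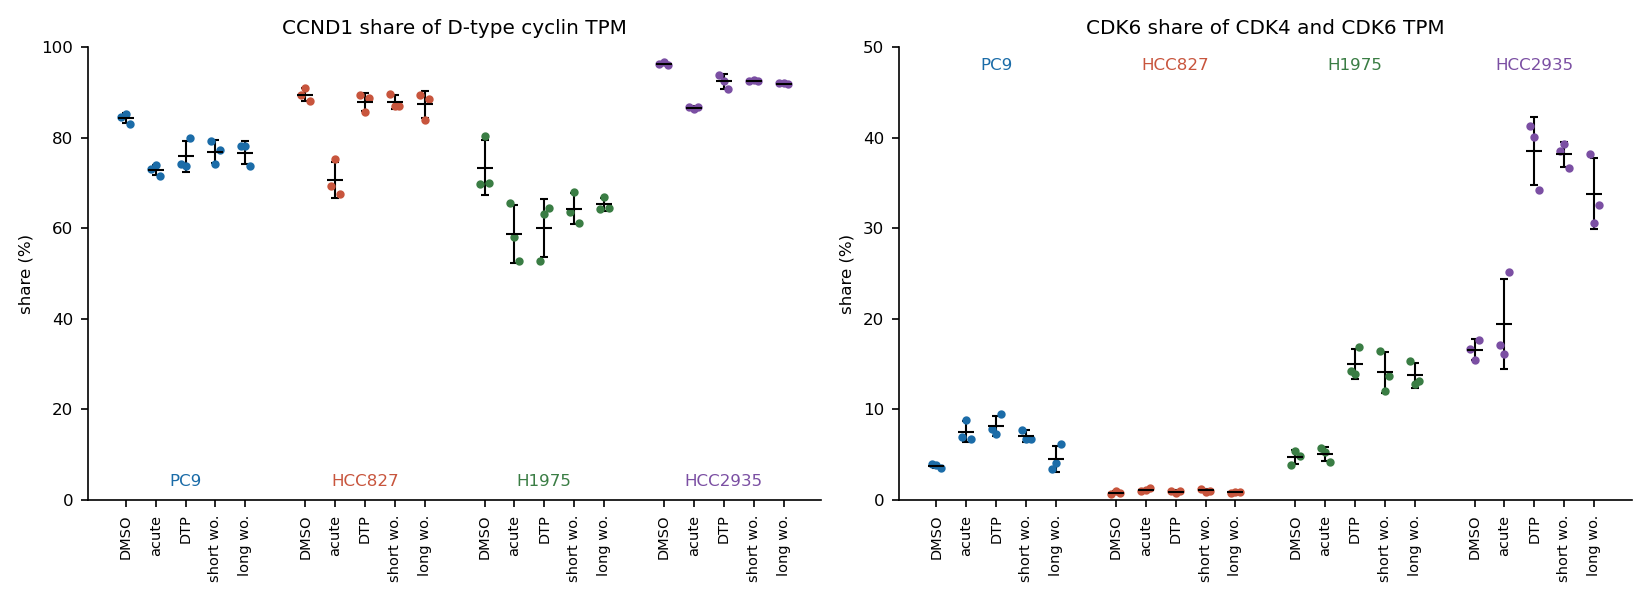
CCND1 as a percentage of the summed TPM of CCND1, CCND2 and CCND3 (left, 0 to 100%) and CDK6 as a percentage of the summed TPM of CDK4 and CDK6 (right, 0 to 50%), in the 5 arms of each line; points are libraries, and black marks with bars are means ± SD (n = 3). The CCND1 share was lowest in the acute arm in each line, and the CDK6 share rose in DTPs of H1975 to 15.02% and of HCC2935 to 38.5%.

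CDK4, a kinase activated by D-type cyclins, fell after acute drug in all 4 lines. In PC9 it went from 254, 216 and 235 CPM to 122, 106 and 122 CPM without overlap (log2 fold change -1.02, SE 0.11, edgeR adjusted p = 1.91e-06). H1975 fell from 317, 232 and 301 CPM to 159, 174 and 195 CPM (-0.69, SE 0.11, edgeR adjusted p = 0.000121), and HCC2935 from 129, 130 and 108 CPM to 78.9, 74.3 and 58.4 CPM (-0.80, SE 0.13, edgeR adjusted p = 0.000132). In HCC827, where CDK4 was far more abundant, it fell from 3266, 3445 and 2988 CPM to 2695, 2547 and 2536 CPM. The HCC827 groups did not overlap, but the call (log2 fold change -0.32, SE 0.11, edgeR adjusted p = 0.0354) was lost when any of the 6 libraries except DMSO replicate 3 was left out (highest adjusted p = 0.118).

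In DTPs CDK4 was also below DMSO in 3 lines, by -0.76 (SE 0.11) in PC9, -0.89 (SE 0.11) in H1975 and -0.79 (SE 0.13) in HCC2935 on the log2 scale, each called by edgeR. In HCC827 the DTP libraries held 3134, 3732 and 3952 CPM, overlapping DMSO, with a difference of 0.16 (SE 0.11, edgeR adjusted p = 0.276). Without the libraries set apart it was 0.25 (edgeR adjusted p = 0.0451). HCC827 DTPs lay above the acute arm by 0.48 (SE 0.11, edgeR adjusted p = 0.00564), and PC9 DTPs by 0.25 (SE 0.11, edgeR adjusted p = 0.0884). The PC9 difference passed without long washout replicate 3, a library of neither arm (edgeR adjusted p = 0.0104). It also passed with only the 6 libraries compared (edgeR adjusted p = 0.0240) and with limma on log2 TPM (0.53, adjusted p = 0.00116). CDK4 overlaps TSPAN31 and MARCH9 on the opposite strand on chromosome 12 (57747727 to 57756013, minus strand), and 1 named pseudogene exists, and whether the counting used strand is not given in the sources used here, so reads from the overlap may be assigned to either gene.

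CDK6, the partner kinase on chromosome 7 (92604921 to 92836594, minus strand), took a different course. In HCC2935 it fell from 239, 221 and 217 CPM under DMSO to 152, 133 and 182 CPM after acute drug (-0.54, SE 0.12, edgeR adjusted p = 0.00128), and stood above both in DTPs, at 449, 379 and 405 CPM (0.86 over DMSO, SE 0.12, edgeR adjusted p = 1.36e-05). H1975 showed the same order, with 120, 123 and 144 CPM under DMSO, 89.3, 90.2 and 80.3 CPM after acute drug and 245, 222 and 288 CPM in DTPs. The 3 arms did not overlap in either line, and DTPs exceeded the acute arm by 1.54 (SE 0.13, edgeR adjusted p = 4.95e-06) in H1975 and 1.40 (SE 0.12, edgeR adjusted p = 1.7e-07) in HCC2935. PC9 was at 98.7, 79.8 and 80.4 CPM under DMSO, differed by 0.02 (SE 0.14, edgeR adjusted p = 0.913) in the acute arm and held 108, 100 and 140 CPM in DTPs (0.43, SE 0.14, edgeR adjusted p = 0.0117). The PC9 call was lost without DTP replicate 3 (0.27, adjusted p = 0.0832), and the PC9 difference of DTPs from acute (0.41, SE 0.14, edgeR adjusted p = 0.0307) without that library or acute replicate 1 or 3 (highest adjusted p = 0.172). In HCC827 neither difference from DMSO passed (0.18 acute, adjusted p = 0.433, and 0.39 in DTPs, edgeR adjusted p = 0.0753), and the latter passed without DMSO replicate 2 or without DTP replicate 2 (lowest adjusted p = 0.00588).

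The kinase pool therefore shifted towards CDK6. On the TPM scale, CDK6 made up 3.79% ± 0.234 of the summed CDK4 and CDK6 level in PC9 under DMSO, 0.783% ± 0.166 in HCC827, 4.73% ± 0.762 in H1975 and 16.6% ± 1.13 in HCC2935. In DTPs the share was 8.21% ± 1.10 in PC9, 0.923% ± 0.134 in HCC827, 15.02% ± 1.64 in H1975 and 38.5% ± 3.79 in HCC2935. The mean difference over lines was 9.20 percentage points (exact permutation p = 3.75e-05, adjusted p = 9.375e-05). HCC827 contributed 0.140 percentage points and HCC2935 21.9. Under acute drug the mean difference was 1.81 percentage points (exact permutation p = 0.0115, adjusted p = 0.0115), of which PC9 had 3.73, and without PC9 it was 1.17 (adjusted p = 0.2295). After long washout the share remained higher than under DMSO by 6.76 percentage points (exact permutation p = 0.0012375, adjusted p = 0.001485), with 9.01 in H1975, 17.2 in HCC2935, 0.762 in PC9 and 0.0446 in HCC827.

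Among the CIP/KIP inhibitors, CDKN1B (chromosome 12, 12715058 to 12722371, plus strand), which encodes p27, a brake on CDK2 that is stable in quiescent cells, rose in 3 lines after acute drug. PC9 went from 48.6, 58.2 and 66 CPM to 104, 113 and 96.6 CPM without overlap (log2 fold change 0.86, SE 0.11, edgeR adjusted p = 7.96e-06). H1975 went from 31.3, 33.2 and 35.9 CPM to 56.6, 61.2 and 52.9 CPM (0.77, SE 0.08, edgeR adjusted p = 5.66e-06), and HCC2935 from 42.2, 43.8 and 40.7 CPM to 70, 57.1 and 60.4 CPM (0.57, SE 0.13, edgeR adjusted p = 0.00153). HCC827 did not pass (0.26, SE 0.12, edgeR adjusted p = 0.114) and its groups overlapped. In DTPs CDKN1B was above DMSO in PC9 (0.49, SE 0.11), HCC827 (0.48, SE 0.12) and H1975 (0.85, SE 0.08), each called by edgeR, whereas HCC2935 libraries were at 40, 41.5 and 41.6 CPM and overlapped DMSO (-0.04, SE 0.13, edgeR adjusted p = 0.803). The HCC2935 level in DTPs was lower than in the acute arm by -0.61 (SE 0.13, edgeR adjusted p = 0.000942). PC9 DTPs were also below the acute arm (-0.37, SE 0.11, edgeR adjusted p = 0.0163), a call lost without acute replicate 2 or DTP replicate 1 (highest adjusted p = 0.0689) and with limma on log2 TPM (-0.10, adjusted p = 0.525).

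CDKN1C (chromosome 11, 2883213 to 2885773, minus strand), which encodes p57, an inhibitor encoded by an imprinted gene, had the largest acute rise of any member in PC9 and HCC827. Its PC9 level rose from 0.575, 1.06 and 0.289 CPM to 6.09, 7.93 and 9.11 CPM (log2 fold change 3.56, SE 0.36, edgeR adjusted p = 8.8e-07). In HCC827 it rose from 2.43, 1.77 and 2.35 CPM to 23.1, 21.7 and 20.6 CPM (3.32, SE 0.30, edgeR adjusted p = 2.19e-06). It was at 24.1, 17.7 and 27.7 CPM in DTPs and 26.3, 32.4 and 12.5 CPM after long washout. No HCC827 library under drug or after washout overlapped DMSO. HCC2935 rose only in the acute arm, from 3.33, 4.2 and 3.26 CPM to 12.6, 12.2 and 8.47 CPM (1.62, SE 0.24, edgeR adjusted p = 4.06e-05), and DTPs held 4.8, 3.95 and 4 CPM (0.24 over DMSO, SE 0.24, edgeR adjusted p = 0.416). In H1975 the DMSO libraries held 4.39, 10.4 and 7.86 CPM and the acute libraries 7.34, 10.4 and 3.97 CPM, which overlapped (-0.06, SE 0.33, edgeR adjusted p = 0.893). PC9 DTPs held 2.31, 2.1 and 1.76 CPM, above DMSO by 1.65 (SE 0.35) and below acute by -1.91 (SE 0.32) on the log2 scale, both called by edgeR.

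CDKN1A, which encodes p21 and is a standard target of p53, had no common acute direction. In H1975 it rose from 42.9, 25.7 and 38.5 CPM to 63.8, 104 and 120 CPM without overlap (log2 fold change 1.42, SE 0.26, edgeR adjusted p = 0.000391), and DTPs held 42.2, 24.5 and 30.4 CPM. In PC9 it fell from 22.1, 24.3 and 29.3 CPM to 13.4, 9.57 and 14.9 CPM (-1.0001, SE 0.30, edgeR adjusted p = 0.00803), and DTPs held 36.6, 28.8 and 62 CPM, above the acute arm by 1.75 (SE 0.30, edgeR adjusted p = 0.000486). HCC2935, with the highest level of the lines, held 289, 302 and 249 CPM under DMSO and 449, 414 and 377 CPM in DTPs, which did not overlap (0.56, SE 0.13, edgeR adjusted p = 0.00145, or 0.102 with all 60 libraries in 1 fit). Its acute libraries held 285, 236 and 201 CPM, overlapping DMSO (-0.22, SE 0.13, edgeR adjusted p = 0.165). No label pairs the replicates, but deviations of same-numbered DMSO and acute replicates of HCC2935 correlated at 0.103 to 0.324. CDKN1A was lower within each same-numbered pair. The fit to those 6 libraries with a replicate block, added after the data were seen, called CDKN1A lower (-0.27, edgeR adjusted p = 0.0204, where 7496 of 14060 genes were called). The edgeR fit with the block on all 15 libraries did not (adjusted p = 0.146). The DTP increases in PC9 (0.75, SE 0.29, edgeR adjusted p = 0.0307) and HCC827 (0.96, SE 0.37, edgeR adjusted p = 0.04998) came from groups that overlapped DMSO. The former was lost without DMSO replicate 1 or 2 or DTP replicate 3 (highest adjusted p = 0.239), and the latter without DMSO replicate 1 or 3 or DTP replicate 1 or 3 (highest adjusted p = 0.206), with the replicate block (adjusted p = 0.0733) and without the libraries set apart (0.65, adjusted p = 0.0628). CDKN1A overlaps DINOL on the opposite strand (chromosome 6, 36676460 to 36687339, plus strand).

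Among the INK4 inhibitors, CDKN2B, which encodes p15, a known target of TGF-beta signalling, rose in the 3 lines where it was tested. PC9 went from 7.54, 14.6 and 14.3 CPM to 83.4, 128 and 93.3 CPM after acute drug (log2 fold change 3.06, SE 0.33, edgeR adjusted p = 1.86e-06) and 147, 136 and 151 CPM in DTPs (3.57, SE 0.34, edgeR adjusted p = 7.42e-07). H1975 went from 19.9, 11 and 16.2 CPM to 29.8, 55.1 and 48.5 CPM (1.501, SE 0.24, edgeR adjusted p = 0.000128) and 33.6, 23.7 and 36.8 CPM in DTPs (1.00, SE 0.24, edgeR adjusted p = 0.00281). Neither arm overlapped DMSO in these lines. HCC827 rose from 36.2, 45.8 and 27.9 CPM to 123, 106 and 93.5 CPM after acute drug (1.56, SE 0.37, edgeR adjusted p = 0.0045). Its DTP libraries held 116, 46.1 and 53.6 CPM, and the call against DMSO (0.97, SE 0.37, edgeR adjusted p = 0.0462) was lost without DTP replicate 1 and short washout replicate 1 (0.45, adjusted p = 0.12), which were set apart for this same gene, and when DMSO replicate 1 or 3 was left out (highest adjusted p over all libraries left out in turn = 0.319). HCC827 DTPs differed from the acute arm by -0.58 (edgeR adjusted p = 0.252). CDKN2B overlaps CDKN2B-AS1 on the opposite strand (chromosome 9, 22002903 to 22009363, minus strand), with the same limit on strand.

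CDKN2C (chromosome 1, 50960745 to 50974633, plus strand), which encodes p18, moved differently: it was higher in 0 and lower in 2 of 4 lines after acute drug. In HCC2935 it fell from 19.3, 17.3 and 13.6 CPM to 7.68, 6.9 and 5.77 CPM after acute drug (log2 fold change -1.30, SE 0.21, edgeR adjusted p = 0.000113) and 4.17, 4.3 and 7.06 CPM in DTPs (-1.70, SE 0.21, edgeR adjusted p = 7.29e-06). HCC827 fell from 9.51, 8.12 and 11.6 CPM to 3.74, 3.67 and 3.58 CPM (-1.41, SE 0.38, edgeR adjusted p = 0.00817), and DTPs held 5.29, 11.2 and 12.9 CPM, on both sides of the DMSO range (0.00, SE 0.36, edgeR adjusted p = 0.993). The HCC827 difference of DTPs from acute (1.42, SE 0.38, edgeR adjusted p = 0.0113) was lost without DTP replicate 3 (highest adjusted p = 0.0555). PC9 DTPs rose from 2.57, 2.14 and 2.92 CPM under DMSO to 4.35, 4.38 and 5.09 CPM (0.86, SE 0.21, edgeR adjusted p = 0.00225). In H1975 CDKN2C passed in neither arm (-0.20 acute, adjusted p = 0.308, and 0.15 in DTPs, edgeR adjusted p = 0.46).

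After 24 h without drug, hardly any member was called against DTPs. Of 38 tests only CCND3 in HCC2935 was called, from 26, 20.4 and 27.6 CPM to 34.9, 38.1 and 34.5 CPM without overlap (log2 fold change 0.54, SE 0.12, edgeR adjusted p = 0.0244), where 3.08% of all genes were called (2.25% higher and 0.83% lower), and the call was lost without DTP replicate 2 or any short washout replicate (highest adjusted p = 0.141) and with all 60 libraries in 1 fit (adjusted p = 0.0712). In HCC2935 DESeq2 and limma each called 2 of 9 members, CCND3 and CCND1, the latter at 0.53 with DESeq2 (adjusted p = 0.0105) and 0.54 with limma (adjusted p = 0.047). In PC9 0 of 9 members passed in edgeR, DESeq2 or limma (5.8% of all genes in edgeR, 3.65% higher and 2.15% lower), with 2 at an unadjusted p under 0.05. In H1975 0 of 10 passed in the same 3 tools (0.0715% of all genes), with 3 at an unadjusted p under 0.05. HCC827 had 0 of 10 in each tool and 0 at an unadjusted p under 0.05. There 0 of 14665 genes passed in edgeR and 0 of 18250 in DESeq2, with 300 genes at an unadjusted p under 0.05 in edgeR. In H1975, deviations of same-numbered DTP and short washout replicates correlated at 0.231 to 0.562. The fit to those 6 libraries with a replicate block called CCND1 (0.71, edgeR adjusted p = 0.00315) and CCND3 (0.48, edgeR adjusted p = 0.0129) higher after short washout. That fit called 1686 of 14665 genes, against 11 of 15379 without the block on the 15 libraries of the line. With the block on those 15 libraries 62 genes were called, and neither CCND1 (adjusted p = 0.226) nor CCND3 (adjusted p = 0.284). CCND1 rose there within each numbered pair, from 28.8 to 61.5, from 57.4 to 87.1 and from 35 to 45.6 CPM.

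After long washout, members were called against DTPs in PC9 and HCC2935, and none passed the test in HCC827 and H1975. These were 5 of 9 members in PC9 (37.3% of all genes, 19.4% higher and 17.9% lower) and 3 of 9 in HCC2935 (11.7%, 6.38% higher and 5.32% lower). HCC827 and H1975 had 0 of 10 each in edgeR, DESeq2 and limma, with 0 and 1 members at an unadjusted p under 0.05, and 0% and 0.0065% of all genes called. In HCC827, 0 genes passed in edgeR and 3 in DESeq2, with 505 at an unadjusted p under 0.05 in edgeR. In PC9 CDK4 rose from 135, 137 and 144 CPM in DTPs to 217, 205 and 152 CPM (log2 fold change 0.46, SE 0.11, edgeR adjusted p = 0.00582), and CDKN2C from 4.35, 4.38 and 5.09 CPM to 8.3, 7.11 and 6.92 CPM (0.69, SE 0.20, edgeR adjusted p = 0.0177). CDKN2B fell from 147, 136 and 151 CPM to 48.2, 39.6 and 106 CPM (-1.16, SE 0.31, edgeR adjusted p = 0.00994), in which the highest value came from replicate 3, 1 of the libraries set apart. Without that replicate the difference was -1.72 (edgeR adjusted p = 3.3e-05) for CDKN2B and 0.60 (edgeR adjusted p = 2.66e-05) for CDK4. CDK6 (-0.51, SE 0.14, edgeR adjusted p = 0.0108) and CDKN1A (-0.86, SE 0.29, edgeR adjusted p = 0.0306) also fell. The calls of CDK6 (highest adjusted p = 0.06), CDKN1A (0.191) and CDKN2C (0.0687) were lost when long washout replicate 1 was left out, CDK6 and CDKN1A also without DTP replicate 3, CDKN1A without long washout replicate 2, and CDKN2C without DTP replicate 1 or 2.

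In HCC2935, CDKN2C rose from 4.17, 4.3 and 7.06 CPM in DTPs to 10.7, 14.4 and 11.2 CPM after 10 days without drug (log2 fold change 1.23, SE 0.21, edgeR adjusted p = 0.00194), and CDKN1C fell from 4.8, 3.95 and 4 CPM to 2.05, 1.72 and 1.27 CPM (-1.33, SE 0.25, edgeR adjusted p = 0.00295). CCND3 rose to 30.3, 32.3 and 37.2 CPM (0.43, SE 0.12, edgeR adjusted p = 0.0299), a call lost without DTP replicate 1 or 2 or long washout replicate 2 or 3 (highest adjusted p = 0.151) and with all 60 libraries in 1 fit (adjusted p = 0.101). In the same comparison, all 12 proliferation genes were higher in PC9 and in HCC2935, and 0 of 12 were called in HCC827 and H1975. Against DMSO, long washout cells had all 12 lower in HCC827 and in H1975, 4 lower in PC9 and 9 lower in HCC2935, with 0 higher in each line.

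Set against DMSO, long washout still left 6 of 9 members different in PC9 (44.8% of all genes), 1 of 10 in HCC827 (42.3%), 7 of 10 in H1975 (53.6%) and 6 of 9 in HCC2935 (43.6%). Of all genes, 23.6%, 21.6%, 28.8% and 21.3% were called higher and 21.1%, 20.7%, 24.8% and 22.4% lower in the same line order. The members' median log2 fold change was 0.52, 0.21, 0.29 and -0.18, beside 0.02, 0.01, 0.06 and -0.02 over all genes. CCND1 remained at 36, 50.7 and 55.8 CPM in H1975 (-2.50, SE 0.33, edgeR adjusted p = 2.53e-05) and at 581, 631 and 693 CPM in HCC2935 (-1.23, SE 0.15, edgeR adjusted p = 6.51e-06), below every DMSO library of the line. CDK6 remained higher in H1975 (0.75, SE 0.13) and HCC2935 (0.81, SE 0.12), and CDKN1B in PC9 (0.52, SE 0.11) and H1975 (0.67, SE 0.08), each called by edgeR. In HCC827 the member called was CDKN1C (3.44, SE 0.30, edgeR adjusted p = 1.23e-06). In HCC2935 CDKN1C went below its DMSO level (-1.09, SE 0.25, edgeR adjusted p = 0.00223), without overlap. CDK4 in PC9 was lower than DMSO with all libraries (-0.30, SE 0.11, edgeR adjusted p = 0.0386) but not without long washout replicate 3 (-0.16, adjusted p = 0.139), and the call was also lost without DMSO replicate 1 or 3. The calls of CDKN1C in PC9 (1.15, SE 0.35, edgeR adjusted p = 0.0162) and CDKN1A in HCC2935 (0.42, SE 0.13, edgeR adjusted p = 0.0134) were lost without DMSO replicate 1 or 3 and without DMSO replicate 3 or long washout replicate 1, respectively (highest adjusted p = 0.0561 and 0.0621), the latter also with all 60 libraries in 1 fit (adjusted p = 0.25).

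The size of the response differed between lines for nearly every member. In a test over all 60 libraries that the acute effect was equal in the 4 lines, 10 of 10 members were called unequal, as were 41.4% of 16583 genes. With replicate 1, 2 or 3 left out of every line the count was 6, 7 or 9. For DTPs against DMSO 9 of 10 were, beside 63.9% of genes, the exception being CDKN1A (edgeR adjusted p = 0.0936). For long washout against DTPs CDKN1C and CDKN2C were, 2 of 10 beside 14.9% of genes. For CCND2 and CDKN2B these tests include PC9 and HCC2935, respectively, where the gene did not pass the filter on low counts. Of the acute effects tested within lines, those of CCND3 and CDKN1A were called in opposite directions, CCND3 higher in PC9 and lower in the other lines, and CDKN1A lower in PC9 and higher in H1975. CCND2, higher in H1975, was not called in HCC827 within the line (-3.16, edgeR adjusted p = 0.107) but was called lower there with all 60 libraries (-3.19, edgeR adjusted p = 0.0132) and by DESeq2 (-3.26, adjusted p = 0.0365). Without HCC827 DMSO replicate 3 that difference was 0.66 (edgeR adjusted p = 0.802).

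Without drug the lines already differed in most members. Over the 6 pairs of lines, 49 of 60 member comparisons under DMSO were called, where 57.4% to 69% of 15214 genes were called per pair. The levels of CDK4 in HCC827 and of CDKN2B in HCC2935 stood far from those of the other lines. HCC827 held 3233 ± 230 CPM of CDK4 (SD, n = 3), against 235 ± 18.8 in PC9, 283 ± 45.4 in H1975 and 122 ± 12.1 in HCC2935, and per length CDK4 was at 4592 TPM there. The log2 difference was 3.51 from H1975 (SE 0.13, edgeR adjusted p = 3.07e-10) and 4.72 from HCC2935 (SE 0.14, edgeR adjusted p = 2.05e-11). CDKN1A also stood far from the other lines in HCC2935, at 280 ± 27.7 CPM, and was lowest in HCC827, at 8.22 ± 3.15 CPM. Its log2 difference of HCC827 from HCC2935 was -5.09 (SE 0.26, edgeR adjusted p = 2.38e-09). CCND2 was lowest in PC9, at 0.00784 CPM.

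The genes around CDK4 and CDKN2B were looked at after the values of these members were seen. Within 1 Mb of the CDK4 start on chromosome 12, 31 genes reached 1 CPM in a line under DMSO. Of these, 5 were more than 9 times higher in HCC827 than the mean of the other lines, namely PIP4K2C (18.7 times), OS9 (18.6 times), AGAP2 (16.7 times), TSPAN31 (9.93 times) and CDK4 itself (15.1 times). Among the 31 genes they form a run of neighbours broken by DTX3, ARHGEF25 and B4GALNT1, which were at 0.731, 1.40 and 0.256 times the mean of the other lines, and ended by CYP27B1 at 0.481 times. TSPAN31 and MARCH9 overlap CDK4 on the opposite strand, and MARCH9 is not among the 31. The use of strand in counting is not given, so the TSPAN31 value may include CDK4 reads. Within 1 Mb of CDKN2B on chromosome 9, 5 of 6 such genes were below 0.1 times the mean of the other lines in HCC2935. These were KLHL9 (0.0231 times), MTAP (0.0083 times), CDKN2A (0.0032 times), CDKN2B (0.0027 times) and DMRTA1 (0.0196 times), while HACD4 was at 0.504 times. CDKN2A, the neighbouring INK4 gene that also encodes ARF, was at 96 CPM in PC9, 207 CPM in HCC827, 23.3 CPM in H1975 and 0.353 CPM in HCC2935. DNA copy number was not measured in these libraries.

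**Figure D4:**
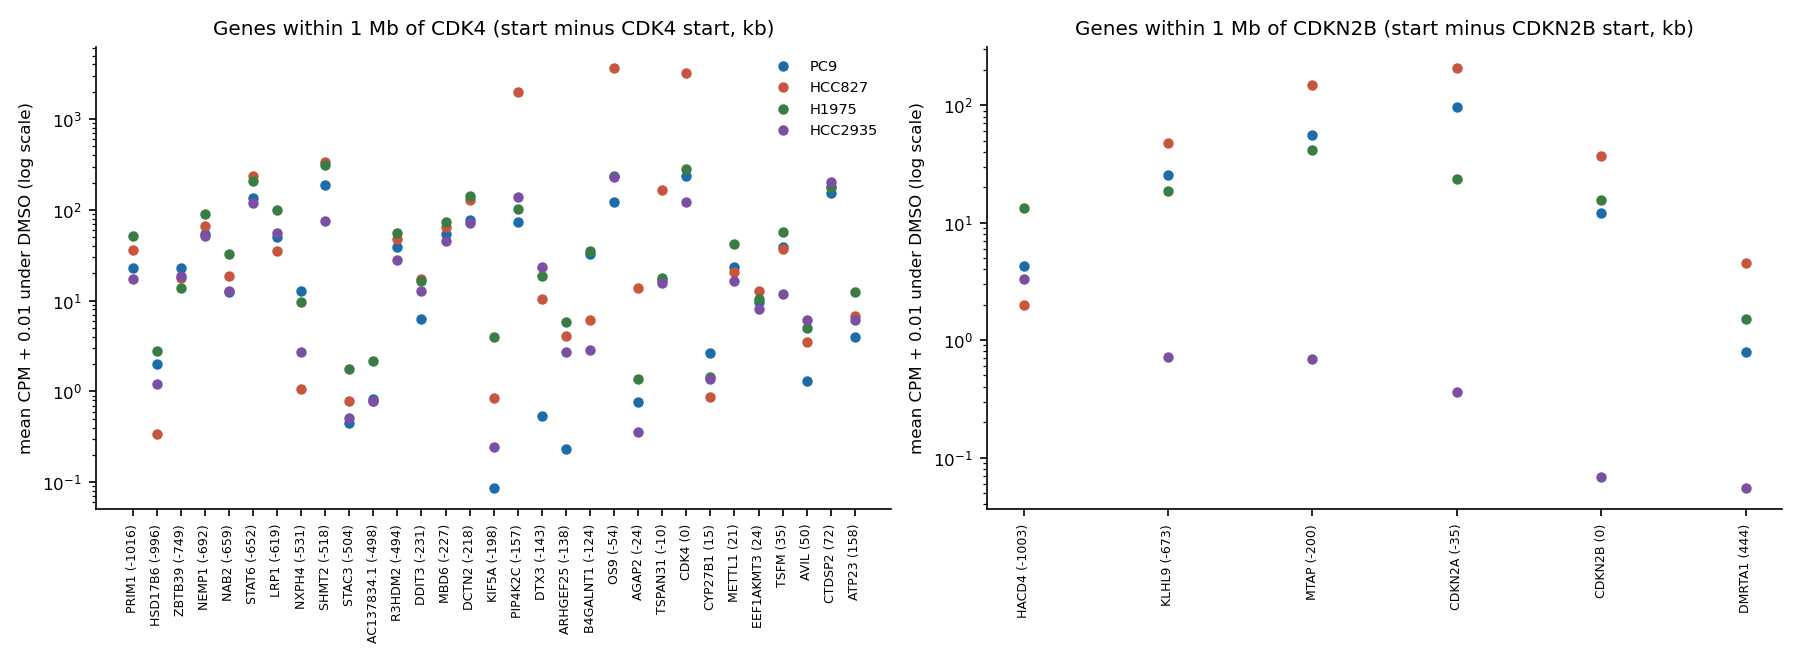
Mean CPM + 0.01 under DMSO (log axis) of genes within 1 Mb of CDK4 (left) and CDKN2B (right), in chromosomal order with the distance of each gene's start from that of CDK4 or CDKN2B in kb, coloured by line. PIP4K2C, OS9, AGAP2, TSPAN31 and CDK4 are high in HCC827, and KLHL9, MTAP, CDKN2A, CDKN2B and DMRTA1 are low in HCC2935.

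The level of each member was also ordered over the 20 groups of line and arm. CCND1 ran from 40.4 CPM in H1975 DTPs to 1486 CPM in HCC2935 under DMSO, CDK6 from 81.7 CPM after long washout in PC9 to 478 CPM after short washout in HCC2935, and CDKN2B from 0.0585 CPM in HCC2935 under DMSO to 144 CPM in PC9 DTPs. Of the 19 pairs of neighbours in this order, 15 to 18 overlapped in their libraries, depending on the member. Most adjacent groups were therefore not told apart, and lines were mixed along the order for CCND1 and CDKN1B. The same count over all genes was not taken, so the overlap is a limit on this order and not a trait of the members.

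Genes whose pattern was most like that of a member were sought by Pearson correlation over the same 20 group means, centred within each line. Candidates were those averaging 1 CPM or more across the 60 libraries, whether or not every line tested them. The correlations are descriptive, since the points share libraries and arms. CCND1 was most like CDK2 (r = 0.94), the kinase that acts after CDK4, RB1 (0.92), the protein that cyclin D complexes phosphorylate, and MYEOV (0.91), which lies near CCND1. CDK4 was most like DDX24 (0.95), RPP25 (0.94) and CS (0.94). CDK6 was most like IKZF3 (0.92), NBPF1 (0.90) and SLC38A1 (0.89), and the genes most like CDKN1B included RNF5 (0.89) and NICN1 (0.89). CDKN1C was most like CYB561D1, TMEM115 and ZNF213 (0.92 each), CCND3 like JCAD, DMC1 and RIBC2 (0.88 to 0.89), CDKN2C like MXD3, CNKSR3 and NDUFAF3 (0.79 to 0.86) and CDKN1A like CGNL1, THSD7A and GPR17 (0.80 to 0.82). CCND2 and CDKN2B, not tested in all lines, were left out.

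The rest of the G1/S machinery, a list of 22 genes, was mostly lower under drug. After acute drug it was lower in 60 and higher in 5 of 87 tests, with line medians between -0.98 and -0.76 on the log2 scale. CDC25A, a phosphatase that activates CDK2, had the lowest mean log2 fold change over the lines (-2.75), followed by E2F1 (-2.31) and CCNE2 (-1.97), a cyclin partner of CDK2, and each was lower in all 4 lines. The highest were the pocket protein gene RBL2 (0.78, higher in 3 lines), the E2F partner TFDP2 (0.37, higher in 1) and CDK7 (0.04, higher in 1). In DTPs the list was lower in 52 and higher in 7 of 87 tests. The lowest there were CDC25A (-1.74), CKS1B (-1.26), which helps degrade p27, and CDK2 (-0.98), each lower in 4 lines, and the highest were RBL2 (0.44, higher in 2), TFDP2 (0.30, higher in 3) and CDK7 (0.11, higher in 0). From DTPs to long washout 19 of these tests were higher and 1 lower, and against DMSO 39 were lower and 10 higher after long washout.

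Proliferation genes (12) were lower than DMSO in 48 of 48 tests in both the acute and the DTP arms. After acute drug the log2 fold change of MKI67, a marker of cycling cells, was -1.23 in PC9, -2.27 in HCC827, -2.22 in H1975 and -1.96 in HCC2935. In the same line order that of TOP2A was -1.63, -2.36, -2.11 and -1.97, and that of CDK1 -2.12, -2.68, -2.36 and -2.06. The members' levels were therefore measured in cultures in which these genes were low, and how far the members follow the share of cycling cells was not tested. ERK-induced genes (10) were lower in 33 and higher in 0 of 40 tests after acute drug, and lower in 29 and higher in 2 of 40 in DTPs. After acute drug the log2 fold change of DUSP6, an ERK phosphatase, was -5.95, -3.37, -3.51 and -5.50 in the same line order, that of SPRY4 -5.12, -4.21, -3.99 and -4.15, and that of ETV4 -3.82, -3.52, -3.73 and -3.96. In HCC827 DTPs CCND1 was at -0.66 against DMSO and 1.84 above its acute level. Against DMSO, DUSP6 was at -0.36 there (edgeR adjusted p = 0.602) and SPRY4 at -0.98 (adjusted p = 0.0782), and 4 of the 10 ERK-induced genes were lower. In H1975 DTPs CCND1 was at -2.73 against DMSO and -0.09 from acute. DUSP6 and SPRY4 were at -2.87 (edgeR adjusted p = 0.000681) and -4.71 (adjusted p = 0.00035) against DMSO there, with 8 of the 10 ERK-induced genes lower and 2 higher. In PC9 DTPs, where CCND1 differed from DMSO by -0.03, DUSP6 was at -4.78 (edgeR adjusted p = 1.14e-05) and SPRY4 at -4.05 (adjusted p = 4.65e-05), and 8 of the 10 ERK-induced genes were lower. HCC2935 DTPs had CCND1 at -1.52, DUSP6 at -3.71 (edgeR adjusted p = 1.98e-08) and SPRY4 at -2.97 (adjusted p = 4.2e-05) against DMSO, and 9 of the 10 ERK-induced genes were lower. Whether CCND1 follows these genes was not tested.

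**Figure D5:**
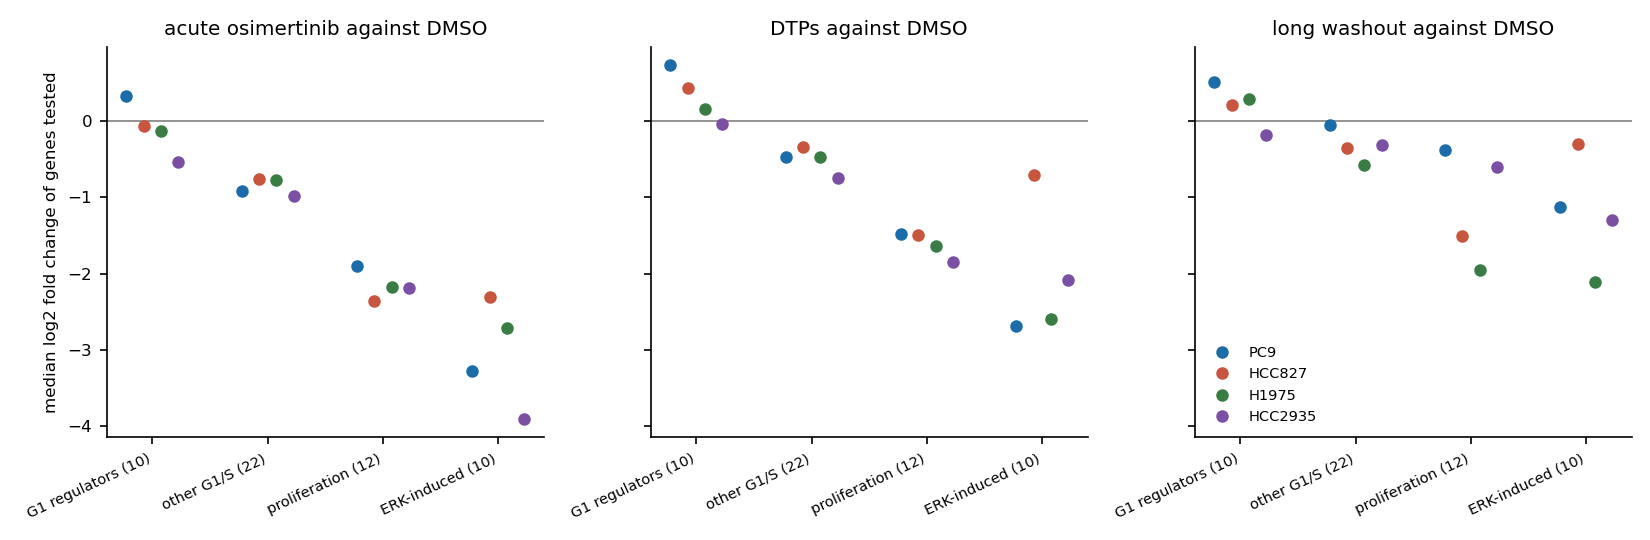
Median log2 fold change against DMSO over the tested genes of each list, by line (colour), for acute osimertinib, DTPs and long washout; numbers in parentheses are genes listed. The medians of the 10 G1 regulators stay between -0.54 and 0.74, while those of proliferation genes lie below -1.48 in the acute and DTP arms.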

How the data were processed

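RNA was sequenced from 60 libraries (TruSeq mRNA, HiSeq4000, paired-end reads), 3 for each of 20 groups of line and arm. The authors deposited estimated counts per gene, which were rounded to whole numbers here, and log2 TPM values with a pseudocount of 0.01, which were turned back to TPM. The submitters' processing notes name HISAT2 2.1.0, Salmon 0.8.2 and hg38; their roles, the annotation and the use of strand are not given in the sources used here. Every library column mapped to a sample title, and 0 columns were left out. Totals ran from 17.7 to 49.1 M counts, and replicates differed by more than counting error in all 60 pairs.

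The main test was the quasi-likelihood F-test of edgeR 4.0.16 (R 4.3.3, limma 3.58.1) within each line on its 15 libraries, with TMM factors of all 60 libraries, filterByExpr, Benjamini-Hochberg adjustment over all genes tested and calls at an adjusted p under 0.05. The paper names no model for this comparison. Differences between lines were tested with 3 degrees of freedom over all libraries. Shares of TPM were tested by exact permutation within lines. Further software was DESeq2 1.42.0 and, under Python 3.11.15, matplotlib 3.10.9, scipy 1.17.1, numpy 2.4.6 and pandas 2.3.3. Each procedure was tested on simulated data. Positions are from GENCODE release 29.

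The members and gene lists were chosen with earlier results of these data known. Genes named were the 10 members, of 22 other G1/S genes the 3 highest and 3 lowest mean changes, the first 3 proliferation and ERK-induced genes, and the 3 genes most like each member, of which 1 is not reported here. Lists of epithelial markers (8 genes) and of other cell types (6 genes) were checked. Alternatives were RLE scaling, TMM per line, no filter or a minimum of 10 counts, a replicate block, 6-library fits, limma on log2 TPM, DESeq2, all libraries in 1 fit, an adjusted p under 0.01, and each library left out; leaving out libraries set apart by their values and the 6-library fit with a block were added after seeing the data. Deviations of same-numbered replicates correlated above 0.1 in all 3 pairs between DTP and short washout in HCC827 and H1975 and between DMSO and acute in HCC2935, in 3 of 40 pairs of arms.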

Additional observations from a re-analysis of the deposited data

Results flagged for a closer look

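The acute effect was called unequal between the 4 lines for every member, by edgeR's test that the effects were equal. With each replicate number left out of every line, 6 to 9 members were called. Tests of CCND2 and CDKN2B include PC9 and HCC2935, respectively, where the gene did not pass the filter on low counts. With all libraries the adjusted p was 2.74e-07 for CCND1, whose log2 fold changes ran from -3.10 in HCC2935 to -0.49 in PC9. It was 6.45e-09 for CCND3, which was higher in PC9 and lower elsewhere, and 0.00517 for CCND2, which within lines was called higher in H1975 and with all 60 libraries also lower in HCC827. For the kinases the adjusted p was 0.00683 (CDK4) and 0.00329 (CDK6), the latter lower in H1975 and HCC2935 and not called in PC9 and HCC827. For the inhibitors it was 7.42e-05 (CDKN1A, lower in PC9 and higher in H1975), 0.0082 (CDKN1B), 8.08e-09 (CDKN1C), 0.0124 (CDKN2B) and 0.000257 (CDKN2C).

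In DTPs against DMSO, edgeR's adjusted p for unequal effects was 6.65e-08 for CCND1, 0.00907 for CCND2, 5.44e-11 for CCND3, 1.5e-06 for CDK4 and 0.0218 for CDK6. It was 9.12e-05 for CDKN1B, 2.85e-08 for CDKN1C, 4.99e-06 for CDKN2B and 1.29e-06 for CDKN2C, which was higher in PC9 (0.86) and lower in HCC2935 (-1.70). From DTPs to long washout it was 0.0121 for CDKN1C, with -1.33 in HCC2935 and 0.53 in H1975, and 0.0103 for CDKN2C, with 1.23 in HCC2935 and -0.24 in H1975. Washouts differed in length, so line and days without drug cannot be told apart there.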

How the results depend on the processing

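Of 2378 member fold changes recomputed under the alternatives, 2304 kept their direction and side of the threshold, 43 lost and 31 gained the call, and 0 reversed. Washout counts moved most. For short washout against DTPs, the 1 member called became 2 with only the 6 libraries compared, with limma on log2 TPM and with DESeq2, 4 with those 6 libraries and a replicate block, and 0 with all 60 libraries or at 0.01. For long washout against DTPs, 8 calls became 4 with 6 libraries, 3 with 6 libraries and a replicate block, and 4 at 0.01, and the 2 unequal effects became 1 with only the libraries of the 2 arms and 0 at 0.01. Without PC9 the acute CDK6 share differed by 1.17 percentage points (adjusted p = 0.2295). With DESeq2, short washout called 15 of the other G1/S tests (8 in the main test), 17 of the proliferation tests (6) and 3 of the ERK-induced tests (1). With the replicate block ERK-induced calls were 0 for short and 6 for long washout (11 in the main test).

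Under the replicate block, member calls were 28 for acute, 25 for DTPs, 20 for DTPs against acute, 1 for short and 8 for long washout against DTPs and 20 for long washout against DMSO. It lost CCND1 (adjusted p = 0.0551) and CDKN1A (adjusted p = 0.0733) in HCC827 DTPs against DMSO, arms whose same-numbered replicates did not correlate above 0.1. Over all arms, 37 of 120 same-numbered pairs correlated best with each other.

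With each library of the arms compared left out in turn, member calls ranged from 26 to 29 (acute), 24 to 27 (DTPs), 17 to 20 (DTPs against acute), 0 to 2 (short washout), 5 to 8 (long washout against DTPs), 18 to 21 (long washout against DMSO) and 46 to 51 (untreated lines). With each replicate number left out of every line at once, unequal effects ranged from 6 to 9 (acute), 8 to 9 (DTPs) and 0 to 5 (long washout). The CCND1 share difference ranged from -14.8 to -13.0 (acute), -8.53 to -5.43 (DTPs) and -6.32 to -4.31 (long washout) percentage points, and that of CDK6 from 1.41 to 2.02, 8.89 to 9.46 and 6.07 to 7.30. Of 103 calls, 83 held in every fit without 1 library, 20 were lost at least once and 0 changed sign. Depth limits CCND2 and, in HCC2935, CDKN2B.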
